A study of Mus musculus with 3 samples.

Results

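The matrix metalloproteinases Mmp2, Mmp12, Mmp13, Mmp14 and Mmp19, their tissue inhibitors Timp1, Timp2 and Timp3, and the collagen-crosslinking enzymes Lox and Loxl2 were followed in mouse liver. These 10 genes were taken by symbol from a table of 35275 genes, and each symbol matched 1 row. Liver polyA RNA was sequenced from male C57BL/6J mice whose diets started at 10 weeks of age, with 1 library for each of 3 groups. TH-treated NASH mice were fed a western diet with liquid fructose for 16 weeks and then received T3 at 35 ng/g and T4 at 7 ng/g for another 8 weeks in drinking water that held 15% (w/v) fructose. The NASH library (nonalcoholic steatohepatitis) came from mice left untreated on that diet, and its label names 24 weeks. The control library came from untreated mice on normal chow, for which the labels give neither weeks on diet nor age at collection. Whether a library holds 1 mouse or a pool is not stated, and the group names below stand for these single libraries.

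Metalloproteinases are zinc enzymes that cut collagens, elastin and other matrix proteins. They are made as inactive precursors, and TIMPs block the active enzyme by binding its catalytic site. Lysyl oxidases are copper enzymes that oxidise lysines in collagen and elastin, which lets the fibres crosslink. In fibrotic liver, activated stellate cells are a known source of collagen, Mmp2, Timp1 and lysyl oxidases, and macrophages are a known source of Mmp12.

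The 3 libraries held 38303410 fragments on genes in TH-treated NASH, 47009255 in NASH and 54576236 in control, and 11094, 11324 and 10598 genes reached 1 FPKM in them. FPKM is a fragment count scaled to gene length and library size, so levels of different genes can be set side by side. Alb, the albumin gene that marks hepatocytes, stood at 14907 FPKM in TH-treated NASH, 20265 in NASH and 32685 in control. With 1 library per group there is no replicate spread and no test between groups. The range in brackets after a value is its exact 95% counting interval. It covers counting error alone and no difference between animals. In bulk RNA, fewer cells of a type and less RNA per cell cannot be told apart.

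Among the 8 members that reached 1 FPKM in any library, the widest differences lay in Mmp12, Mmp13, Mmp2 and Timp1, which stood under 1 FPKM in TH-treated NASH and in control and above it in NASH. Mmp14, the membrane-anchored enzyme that activates Mmp2, stood apart from the other members, with its highest level in TH-treated NASH. Mmp14 and Mmp19 were the most abundant members in every library. Together they made up 97.0% of the summed FPKM of the 5 metalloproteinases in TH-treated NASH, 83.9% in NASH and 97.2% in control.

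**Figure D1:**
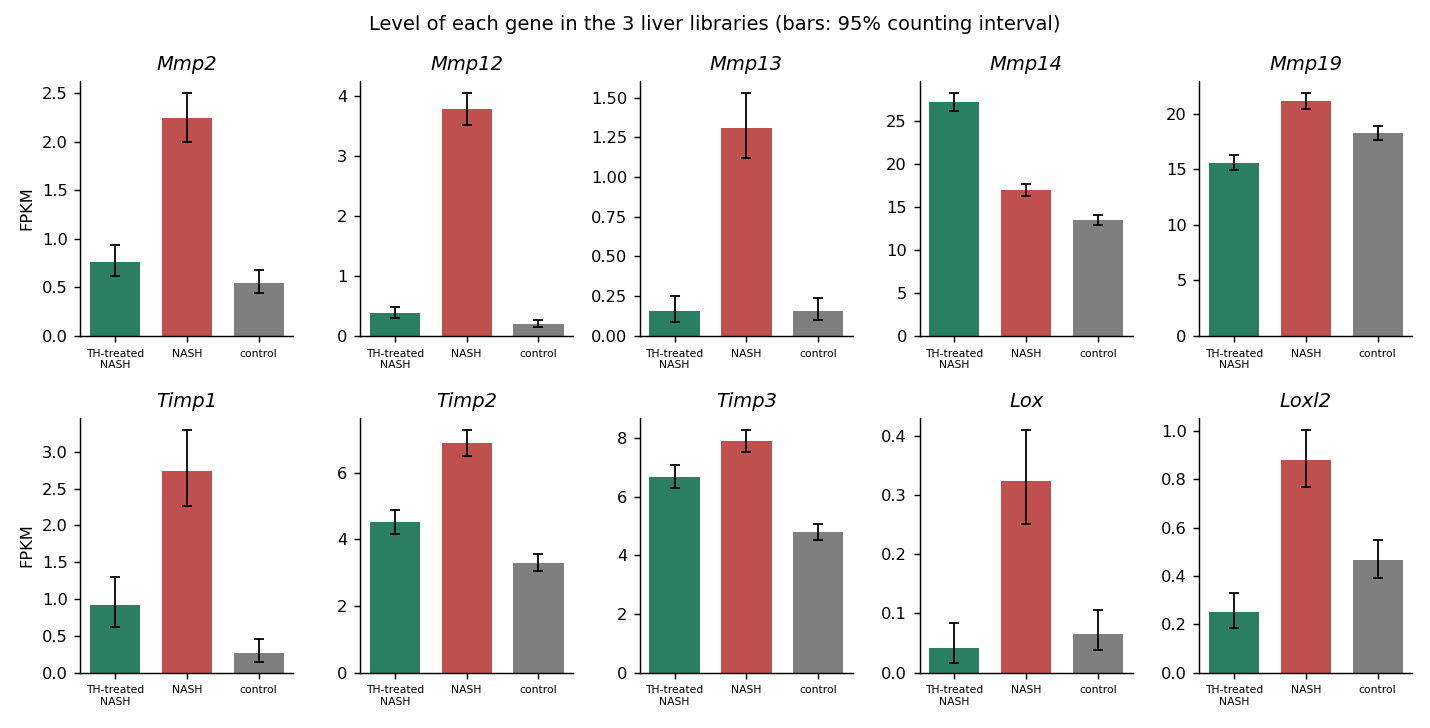
FPKM of the 10 genes in TH-treated NASH, NASH and control liver, 1 library each; the vertical axis starts at 0 and differs between panels, and black bars are 95% counting intervals. NASH is the highest library for 9 genes, and Mmp14 is highest in TH-treated NASH at 27.2 FPKM.

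The sequence upstream of 4 genes is shown, chosen as those that differed most in pattern among the 6 members with a RefSeq promoter entry. These were Mmp12, Mmp13 and Timp1 with their highest level in NASH, and Mmp14 with its highest level in TH-treated NASH. Mmp2, Mmp19, Lox and Loxl2 had no such entry. Each line gives the 250 bases before the start site in RefSeq (GRCm38.p6), 5′ to 3′. Capitals mark matches on either strand to 4 motifs, the AP-1 site TGANTCA, the TATA box TATAAA, the GC box GGGCGG and the thyroid hormone response half-site AGGTCA, and no match overlaps another.
Mmp12, chr9:7344147-7344396, plus strand: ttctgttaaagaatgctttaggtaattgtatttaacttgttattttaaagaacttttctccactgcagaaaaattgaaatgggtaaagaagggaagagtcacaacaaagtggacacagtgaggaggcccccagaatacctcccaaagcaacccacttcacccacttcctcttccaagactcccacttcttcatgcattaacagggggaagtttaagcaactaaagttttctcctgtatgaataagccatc
Mmp13, chr9:7272264-7272513, plus strand: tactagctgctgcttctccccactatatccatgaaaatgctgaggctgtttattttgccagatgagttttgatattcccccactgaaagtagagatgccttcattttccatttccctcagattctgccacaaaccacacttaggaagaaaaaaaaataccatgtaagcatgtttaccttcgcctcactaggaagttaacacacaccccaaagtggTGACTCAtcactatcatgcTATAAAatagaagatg
Timp1, chrX:20869916-20870165, plus strand: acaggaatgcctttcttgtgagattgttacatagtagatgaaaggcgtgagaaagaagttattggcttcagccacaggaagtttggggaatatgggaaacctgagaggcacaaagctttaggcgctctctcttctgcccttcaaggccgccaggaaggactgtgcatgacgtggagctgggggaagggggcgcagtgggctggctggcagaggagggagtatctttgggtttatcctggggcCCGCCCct
Mmp14, chr14:54431348-54431597, plus strand: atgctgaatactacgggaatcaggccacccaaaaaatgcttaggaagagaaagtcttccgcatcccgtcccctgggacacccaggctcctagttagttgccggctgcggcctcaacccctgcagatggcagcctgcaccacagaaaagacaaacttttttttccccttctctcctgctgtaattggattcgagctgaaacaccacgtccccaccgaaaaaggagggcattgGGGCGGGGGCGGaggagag
The Mmp13 window held an AP-1 match that begins 35 bases before the start site and a TATA match that begins 16 bases before it. The Mmp14 window held 2 GC boxes side by side, beginning 19 and 13 bases before the start, and the Timp1 window held 1 GC box on the reverse strand. The Mmp12 window held none of the 4 motifs. Of all 32851 promoter windows of this length, 6.75% held the AP-1 motif, 12.4% the TATA box, 32.7% the GC box and 14.0% the half-site. The windows of Timp2 and Timp3, the other members in the RefSeq table, each held 1 GC box and were 68.0% and 65.6% G or C, against 40.0% for Mmp12, 40.4% for Mmp13, 54.4% for Timp1 and 55.2% for Mmp14. The RefSeq start site lay 16 bases after the deposited gene start for Mmp12, for which the nearer of 2 windows is shown, 6 bases before it for Mmp14, and at the same base for Mmp13 and Timp1. These matches describe letters and were not tested as binding sites.

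NASH was set against control to show how livers on the diet differed from those on chow. All 10 genes were higher in NASH, with a counting interval of the FPKM ratio above 1 for each. The share of all genes with such an interval is not given here, so this count has no background. On the log2(FPKM + 1) scale, which understates the fold of low genes, 6 of the 10 lay at 1.5-fold or more and 0 lay as far below. Of the 11835 genes at 1 FPKM or more in any library, 10.3% lay that far above control and 2.53% that far below. Mmp12, Mmp13, Mmp2 and Timp1 reached 1 FPKM in the NASH library alone and so entered the 8 members above that level through the library where they were high, while Lox and Loxl2 stayed under 1 FPKM throughout. Over those 8 members the median log2 ratio was 0.94, beside 0.12 over all genes. These figures describe the libraries and lend no separate support.

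Among the secreted proteases, Mmp12, the macrophage elastase, stood at 3.78 FPKM in NASH (3.52 to 4.05) on 794 fragments, and at 0.197 in control (0.145 to 0.261) on 48. That is 19.2-fold higher (14.3 to 26.3), and on the log2(FPKM + 1) scale it ranked 37 from the top among the 11835 genes. Mmp13, the collagenase that opens fibrillar collagen in rodents, stood at 1.31 FPKM in NASH (1.12 to 1.53) on 165 fragments. In control it stood at 0.158 (0.0999 to 0.236) on 23, so NASH was 8.33-fold higher (5.37 to 13.5). Mmp2, a gelatinase that cuts denatured collagen and type IV collagen, stood at 2.24 FPKM in NASH (2.0 to 2.50) and 0.549 in control (0.442 to 0.674), 4.08-fold higher (3.22 to 5.21). The intervals of NASH and control lay apart for all 3 genes.

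The more abundant enzymes differed little. Mmp14 stood at 17.0 FPKM in NASH (16.3 to 17.7) and 13.5 in control (12.9 to 14.1), 1.26-fold higher (1.18 to 1.34). Mmp19, which cuts basement membrane proteins, stood at 21.1 FPKM in NASH (20.4 to 21.9) and 18.3 in control (17.7 to 18.9), 1.16-fold higher (1.10 to 1.21). For Mmp19 the log2 ratio was 0.20 as deposited and 0.03 after trimmed-mean scaling, so the size of its difference from control depends on the scaling.

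All 3 inhibitors were higher in NASH, by unequal amounts. Timp1, the soluble inhibitor that is low in resting liver, stood at 2.75 FPKM in NASH (2.27 to 3.30) and 0.270 in control (0.144 to 0.461), 10.2-fold higher (5.72 to 19.7) on 114 and 13 fragments. Timp2, which also takes part in the activation of Mmp2 by Mmp14, stood at 6.89 FPKM in NASH (6.50 to 7.29) and 3.30 in control (3.05 to 3.55), 2.09-fold higher (1.90 to 2.30). Timp3, which is held in the matrix and also blocks ADAM proteases, stood at 7.91 FPKM in NASH (7.54 to 8.29) and 4.80 in control (4.54 to 5.08), 1.65-fold higher (1.53 to 1.77). The call of Timp3 past 1.5-fold ended after trimmed-mean and median-of-ratios scaling, where its log2(FPKM + 1) ratio was 0.46 and 0.50 in place of 0.62.

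The crosslinking enzymes were the lowest members in NASH. Lox stood at 0.324 FPKM in NASH (0.251 to 0.410) on 68 fragments and at 0.0656 in control (0.0375 to 0.107) on 16, 4.93-fold higher (2.83 to 9.12). Loxl2, a relative that acts on type IV collagen among other substrates, stood at 0.880 FPKM in NASH (0.768 to 1.005) and 0.465 in control (0.390 to 0.551), 1.89-fold higher (1.52 to 2.36). At these levels the log2(FPKM + 1) ratios were 0.31 and 0.36, short of 1.5-fold.

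**Figure D2:**
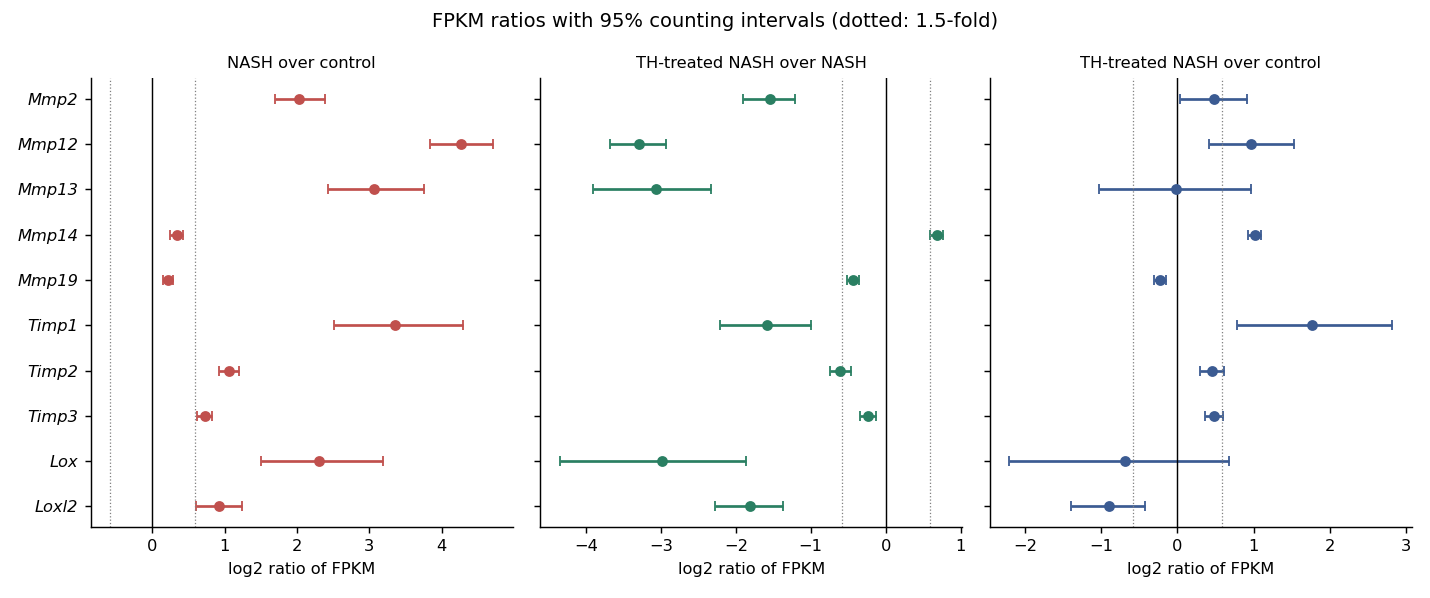
Log2 ratio of FPKM for each gene in 3 comparisons, with points for the ratio, bars for its 95% counting interval and dotted lines at 1.5-fold. In NASH over control all 10 points lie above 0, and in TH-treated NASH over NASH only Mmp14 lies above 0.

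TH-treated NASH was set against NASH to show what differed with thyroid hormone while the diet went on. Of the 10 genes, 9 were lower in TH-treated NASH with a counting interval below 1, and Mmp14 was higher. This count also has no share of all genes beside it. On the log2(FPKM + 1) scale 5 of 10 lay at 1.5-fold or more below NASH, beside 9.02% of the genes at 1 FPKM or more. That far above lay 1 of 10, a share near the 8.42% of those genes. The 5 lower genes were Mmp12, Mmp13, Mmp2, Timp1 and Loxl2, of which Loxl2 stayed under 1 FPKM and is outside that background. Of the 8 members that reached 1 FPKM, 4 were lower, and the median log2 ratio was −0.70, beside −0.04 over all genes. Both comparisons share the NASH library, so a high or low value in it enters each, with opposite signs. As above, 4 of the members entered through that library.

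Mmp12 stood at 0.385 FPKM in TH-treated NASH (0.298 to 0.490) on 66 fragments, against 3.78 in NASH, 9.80-fold lower (7.62 to 12.8), and ranked 66 from the bottom of 11835 genes. Mmp13 stood at 0.156 FPKM in TH-treated NASH (0.0893 to 0.254) on 16 fragments, against 1.31 in NASH, 8.40-fold lower (5.02 to 15.0). Mmp2 stood at 0.765 FPKM in TH-treated NASH (0.614 to 0.941), against 2.24 in NASH, 2.93-fold lower (2.31 to 3.75). These 3 proteases summed to 1.31 FPKM in TH-treated NASH, 7.33 in NASH and 0.903 in control.

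Mmp14 went the other way. It stood at 27.2 FPKM in TH-treated NASH (26.2 to 28.3) on 2708 fragments and at 17.0 in NASH on 2073, 1.6-fold higher (1.51 to 1.70). The call past 1.5-fold ended with equal FPKM sums, and with equal sums taken without the 50 most abundant genes, where the log2(FPKM + 1) ratio was 0.55 and 0.54 in place of 0.65. The direction held under each scaling. Mmp19 stood at 15.6 FPKM in TH-treated NASH (14.9 to 16.3), against 21.1 in NASH, 1.35-fold lower (1.28 to 1.43). Mmp14 was thus above Mmp19 in TH-treated NASH, while Mmp19 was above Mmp14 in NASH and in control, and in each library the intervals of this pair lay apart.

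Timp1 stood at 0.917 FPKM in TH-treated NASH (0.623 to 1.30) on 31 fragments, against 2.75 in NASH, 3.0-fold lower (2.0 to 4.61). Timp2 stood at 4.52 FPKM in TH-treated NASH (4.18 to 4.88), against 6.89 in NASH, 1.52-fold lower (1.38 to 1.68), which is short of 1.5-fold on the log2(FPKM + 1) scale as deposited, at −0.52, and reached −0.61 under another scaling. Timp3 stood at 6.69 FPKM in TH-treated NASH (6.32 to 7.08), against 7.91 in NASH, 1.18-fold lower (1.10 to 1.27). Among the inhibitors Timp1 differed most and Timp3 least. Lox stood at 0.0409 FPKM in TH-treated NASH (0.0164 to 0.0843) on only 7 fragments, against 0.324 in NASH, 7.92-fold lower (3.64 to 20.4). Loxl2 stood at 0.250 FPKM in TH-treated NASH (0.186 to 0.329), against 0.880 in NASH, 3.51-fold lower (2.58 to 4.87), with its call past 1.5-fold lost after trimmed-mean and median-of-ratios scaling.

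**Figure D3:**
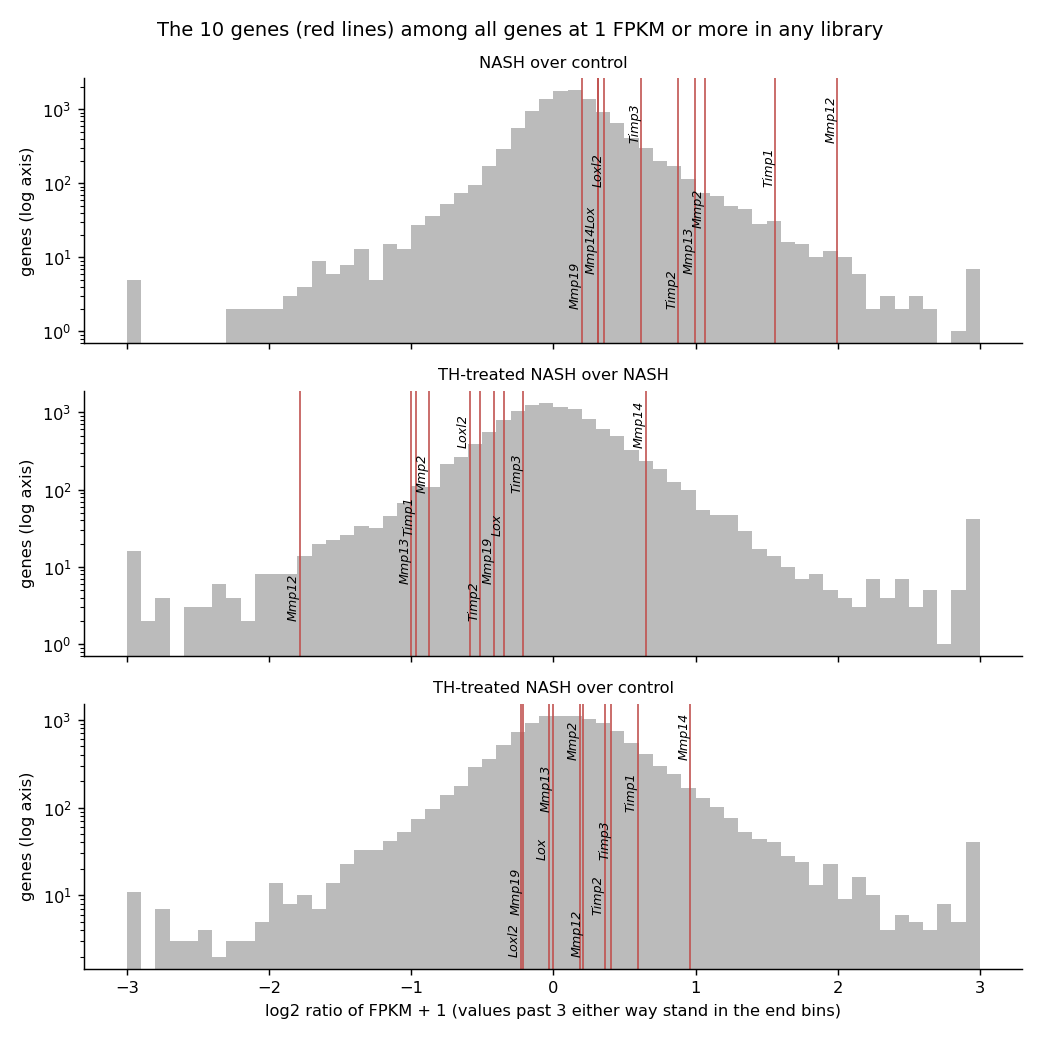
Histograms of log2(FPKM + 1) ratios over the 11835 genes at 1 FPKM or more in any library, with a log axis for the number of genes and red lines for the 10 members, of which Lox and Loxl2 are not among the genes counted. Mmp12 lies far out at 2.0 in NASH over control and at −1.79 in TH-treated NASH over NASH, and Mmp14 lies at 0.65 in TH-treated NASH over NASH.

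Against control, 6 of the 10 genes were higher in TH-treated NASH with a counting interval above 1, 2 were lower and 2 had an interval that holds 1. These counts by interval likewise have no share of all genes beside them. On the log2(FPKM + 1) scale 2 of 10 lay at 1.5-fold or more above control, a share near the 15.5% of genes at 1 FPKM or more. That far below lay 0 members, beside 6.86% of those genes. The 2 genes were Mmp14 and Timp1. Mmp14 stood at 27.2 FPKM in TH-treated NASH and 13.5 in control, 2.02-fold higher (1.90 to 2.14). It kept its call under every scaling, with log2 ratios of 0.79 to 0.96. Timp1 stood at 0.917 FPKM in TH-treated NASH and 0.270 in control, 3.40-fold higher (1.73 to 7.07), but its call past 1.5-fold ended under each of the 4 scalings.

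The remaining members lay nearer. Mmp12 was 1.96-fold higher in TH-treated NASH than in control (1.33 to 2.90), Mmp2 1.39-fold (1.03 to 1.89), Timp2 1.37-fold (1.23 to 1.53) and Timp3 1.39-fold (1.29 to 1.51). The Mmp13 ratio of 0.991 (0.489 to 1.96) and the Lox ratio of 0.623 (0.217 to 1.6) were those with an interval that holds 1, and a 1.5-fold difference was not detectable on so few fragments. Mmp19 was 1.17-fold lower in TH-treated NASH (1.11 to 1.24), and Loxl2 1.86-fold lower (1.34 to 2.62) at 0.250 against 0.465 FPKM.

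The order of levels within a library, all on the FPKM scale, ran from Mmp14 at 27.2 and Mmp19 at 15.6 in TH-treated NASH through Timp3 and Timp2 down to Lox at 0.0409. In that library the intervals of Timp1 and Mmp2 overlapped, as did those of Mmp12 and Loxl2, and of Loxl2 and Mmp13. In NASH the order began with Mmp19, Mmp14, Timp3 and Timp2, followed by Mmp12, Timp1, Mmp2, Mmp13, Loxl2 and Lox, and among neighbours only the intervals of Timp1 and Mmp2 overlapped. In control the first 4 were the same as in NASH, and each gene from Mmp2 down through Loxl2, Timp1, Mmp12, Mmp13 and Lox overlapped its neighbour.

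The balance of proteases and inhibitors among the members also differed between libraries. The summed FPKM of the 5 metalloproteinases was 44.1 in TH-treated NASH, 45.5 in NASH and 32.7 in control, and that of the 3 inhibitors was 12.1, 17.5 and 8.36 in the same order. The first sum over the second was 3.64 in TH-treated NASH, 2.59 in NASH and 3.90 in control. Mmp14 and Mmp19 carry that ratio. For the summed Mmp2, Mmp12 and Mmp13 over the inhibitors it was 0.108 in TH-treated NASH, 0.418 in NASH and 0.108 in control, so NASH is the lowest library by the first ratio and the highest by this one. Mmp14 over Timp2, the pair that handles the Mmp2 precursor, was 6.02 in TH-treated NASH (5.53 to 6.58), 2.47 in NASH (2.29 to 2.65) and 4.09 in control (3.74 to 4.47), with no overlap among the 3 intervals. Mmp12 over Timp1 was 0.420 in TH-treated NASH (0.270 to 0.666), 1.37 in NASH (1.13 to 1.69) and 0.729 in control (0.389 to 1.47), where the control interval overlaps both others. These are ratios of RNA levels within a library and do not measure enzyme activity. They leave out Mmp15, a metalloproteinase outside the member list, at 7.85 FPKM in TH-treated NASH, 16.7 in NASH and 13.8 in control.

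The collagen substrates gave a scale for these members. Col1a1, the main chain of type I collagen, stood at 1.23 FPKM in TH-treated NASH, 6.81 in NASH and 1.31 in control. Timp1 over Col1a1 was 0.746 in TH-treated NASH (0.497 to 1.08), 0.404 in NASH (0.331 to 0.488) and 0.206 in control (0.109 to 0.357), so that TH-treated NASH held more Timp1 per Col1a1 than either other library, with an interval clear of both. Mmp2 over Col1a1 was 0.623 in TH-treated NASH (0.485 to 0.793), 0.329 in NASH (0.292 to 0.371) and 0.420 in control (0.331 to 0.528), where the control interval overlaps both others. Mmp13 over Col1a1 was 0.127 in TH-treated NASH (0.0717 to 0.210), 0.193 in NASH (0.163 to 0.226) and 0.121 in control (0.0756 to 0.183), with intervals that overlap between each pair of libraries.

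Most other members of the protease family were low in these livers. Of 18 further metalloproteinase genes, 16 stayed under 1 FPKM in every library and 4 of these had no fragment at all. Mmp15, a membrane-anchored relative of Mmp14, stood at 7.85 FPKM in TH-treated NASH, 16.7 in NASH and 13.8 in control, which is 2.12-fold lower in TH-treated NASH than in NASH (1.99 to 2.26) and 1.75-fold lower than in control (1.65 to 1.87), the opposite direction to Mmp14. Mmp23 stood at 2.09 FPKM in TH-treated NASH, 2.15 in NASH and 0.984 in control, 2.19-fold higher in NASH than in control (1.65 to 2.92). Past 1.5-fold on the log2(FPKM + 1) scale, Mmp23 stood above control in NASH and Mmp15 below NASH in TH-treated NASH. Of the 4 other TIMP and lysyl oxidase genes, Loxl1 and Loxl3 reached 1 FPKM. Loxl1, which acts on elastin, stood at 0.766 FPKM in TH-treated NASH, 1.72 in NASH and 0.489 in control, and Loxl3 stood at 1.47, 0.960 and 0.456 FPKM in the same order. Past 1.5-fold on that scale, Loxl1 stood above control in NASH and below NASH in TH-treated NASH, and Loxl3 did neither. Loxl3 stood past that fold above control in TH-treated NASH, 3.21-fold higher by FPKM ratio (2.53 to 4.10). Against NASH it was 1.53-fold higher there (1.25 to 1.86), the opposite direction to Loxl1.

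Genes of procollagen processing and modification were partly higher in NASH. Of 25 such genes 18 reached 1 FPKM. Past 1.5-fold on the log2(FPKM + 1) scale, which sets every such count below, 6 of them stood above control in NASH and 0 below. These counts stand beside 10.3% and 2.53% of all genes, and the median of the 18 was 0.47. In TH-treated NASH 3 stood above NASH and 1 below, at a median of −0.06, beside 8.42% and 9.02% of all genes. The 3 above, named after their values were seen, were Bmp1, a protease that removes the carboxyl propeptide of procollagen, at 38.3 FPKM in TH-treated NASH and 21.1 in NASH, Pcolce2, at 1.98 and 0.633 FPKM, and Adamts14, at 1.23 and 0.283 FPKM in that order. The one below was Serpinh1, the collagen chaperone, at 9.72 FPKM in TH-treated NASH, 19.5 in NASH and 8.79 in control. Adamts2, which removes the amino propeptide of procollagen, stood at 1.08 FPKM in TH-treated NASH, 2.04 in NASH and 0.588 in control. Crtap, a part of the prolyl 3-hydroxylation complex, stood at 3.34, 4.94 and 2.42 FPKM in that order, and P4ha1, a prolyl 4-hydroxylase subunit, at 2.37, 3.38 and 1.65 FPKM.

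Among 12 activators and inhibitors of matrix proteases, 9 reached 1 FPKM. In NASH 3 stood above control and 0 below, beside 10.3% and 2.53% of all genes. The median log2(FPKM + 1) ratio of the 9 was 0.24. In TH-treated NASH 1 stood above NASH and 3 below, at a median of −0.36, beside 8.42% and 9.02% of all genes. Plau, urokinase, which turns plasminogen into the protease plasmin, stood at 0.802 FPKM in TH-treated NASH, 2.40 in NASH and 0.649 in control. Its receptor Plaur stood at 0.636, 1.69 and 0.302 FPKM in the same order. Serpinf2, the plasmin inhibitor that hepatocytes secrete, stood at 406 FPKM in TH-treated NASH, 247 in NASH and 365 in control. Furin, which cuts the precursor of Mmp14, was the third gene lower in TH-treated NASH beside Plau and Plaur, at 36.4 FPKM against 56.5 in NASH, and was named after its value was seen.

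Of 16 substrates and matrix genes 14 reached 1 FPKM. In NASH 11 of these stood above control and 0 below, beside 10.3% and 2.53% of all genes. The median log2(FPKM + 1) ratio of the 14 was 0.81. In TH-treated NASH 0 stood above NASH and 9 below, at a median of −0.69, beside 8.42% and 9.02% of all genes. Col3a1 stood at 4.43 FPKM in TH-treated NASH, 16.7 in NASH and 4.51 in control, and Col1a2 at 2.52, 8.24 and 1.90 FPKM in that order. Lum, the collagen-binding proteoglycan lumican, was unlike them in TH-treated NASH, at 6.91 FPKM against 8.13 in NASH and 2.23 in control.

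**Figure D4:**
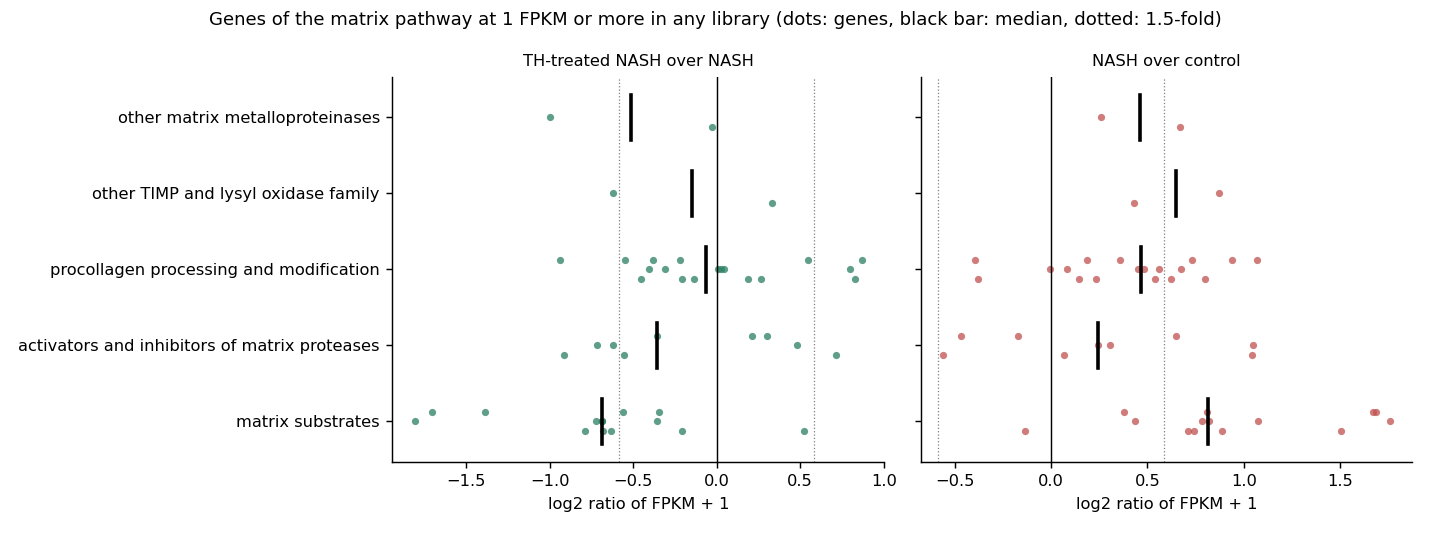
Log2(FPKM + 1) ratios of the related genes at 1 FPKM or more in any library, for TH-treated NASH over NASH and for NASH over control; dots are genes, black bars medians and dotted lines 1.5-fold. Matrix substrates have medians of −0.69 and 0.81, and genes of procollagen processing and modification of −0.06 and 0.47.

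Markers of the cell types in liver differed beside these results. The marker counts below stand beside shares of all genes past the same fold. In NASH over control these were 10.3% above and 2.53% below. For TH-treated NASH they were 8.42% and 9.02% against NASH, and 15.5% and 6.86% against control. Stellate cell and fibroblast markers, 11 of 12 at 1 FPKM or more, summed to 44.8 FPKM in TH-treated NASH, 54.8 in NASH and 27.3 in control. Of the 11, 6 were higher in NASH than in control, and 2, Pdgfrb and Dpt, were lower in TH-treated NASH than in NASH. The sum was 1.22-fold lower in TH-treated NASH than in NASH. By FPKM ratio the 11 markers ranged from Ngfr, 1.95-fold lower, to Des, 1.25-fold higher. Monocyte and lipid-associated macrophage markers, all 10 at 1 FPKM or more, summed to 130.4 FPKM in TH-treated NASH, 191 in NASH and 55.2 in control. Past 1.5-fold on the log2(FPKM + 1) scale, all 10 were higher in NASH than in control. In TH-treated NASH 2, Gpnmb and Spp1, stood that far below NASH. Gpnmb, a defining marker of lipid-laden macrophages, stood at 0.124 FPKM in TH-treated NASH, 5.19 in NASH and 0.0289 in control, the farthest of the list from NASH. The other markers stood nearer to NASH, by unequal amounts. Cd63, the only one higher in TH-treated NASH than in NASH, stood at 39.3 FPKM there, 35.4 in NASH and 5.25 in control. Lgals3 stood at 16.2, 18.2 and 3.72 FPKM in that order. By FPKM ratio Ms4a7 was 2.21-fold lower in TH-treated NASH than in NASH, Trem2 1.91-fold and Cx3cr1 1.86-fold. On the log2(FPKM + 1) scale Ms4a7, Trem2 and Cx3cr1 fell short of 1.5-fold. In TH-treated NASH 7 of the 10 stood past 1.5-fold above control.

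Kupffer cell and macrophage markers, 10 of 10 at 1 FPKM or more, summed to 899 FPKM in TH-treated NASH and 585 in NASH. The sum in NASH was 2.93-fold that of control. All 10 were higher in NASH than in control, and 4 were higher still in TH-treated NASH than in NASH and 0 lower. Neutrophil markers summed to 105 FPKM in TH-treated NASH, 9.42 in NASH and 4.98 in control, with all 8 higher in TH-treated NASH than in NASH. Mmp8, the collagenase stored in neutrophil granules, is named here because of those markers. It stood at 0.607 FPKM in TH-treated NASH on 57 fragments and 0.0780 in NASH on 9. Its log2(FPKM + 1) ratio of 0.576 was short of 1.5-fold. Cholangiocyte markers summed to 7.24 FPKM in TH-treated NASH, 10.7 in NASH and 9.66 in control, and sinusoidal endothelial markers to 94.8, 87.8 and 77.5 FPKM in that order. The part of any of these cells in the members' differences was not tested.

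**Figure D5:**
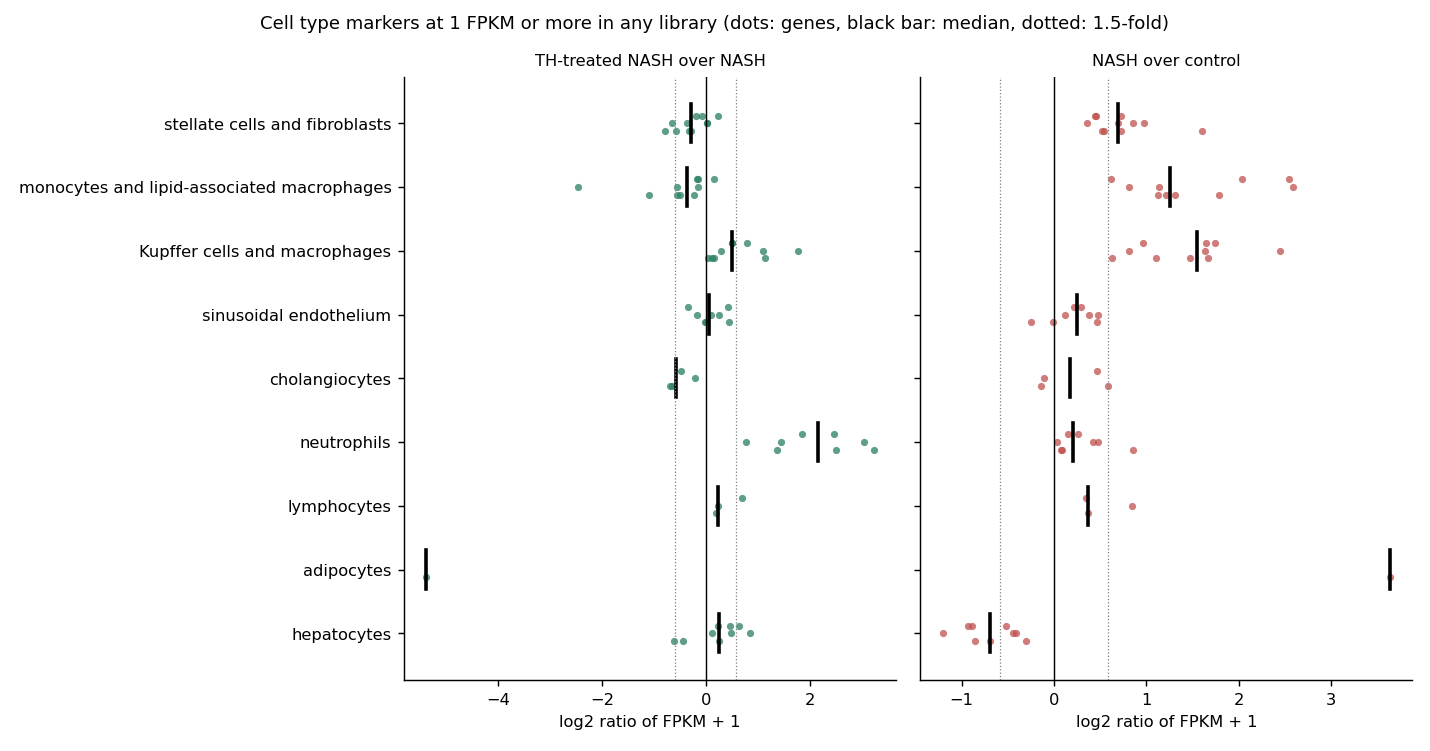
Log2(FPKM + 1) ratios of cell type markers at 1 FPKM or more in any library, for TH-treated NASH over NASH and for NASH over control; dots are genes, black bars medians and dotted lines 1.5-fold. Neutrophil markers have a median of 2.16 in TH-treated NASH over NASH, and the stellate list one of −0.29.

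Markers of lymphocytes were low, with 3 of 7 at 1 FPKM or more and sums of 7.26 FPKM in TH-treated NASH, 6.02 in NASH and 2.84 in control. Mesothelial markers, 0 of 4 at 1 FPKM, summed to 1.47, 1.31 and 0.320 FPKM in that order. Of 4 adipocyte markers Cfd alone reached 1 FPKM, at 0.0849 in TH-treated NASH, 44.2 in NASH and 2.64 in control. Adipoq, which defines fat cells, stood at 0.0404 FPKM in TH-treated NASH on 2 fragments, at 0.0659 in NASH on 4, and was listed at 0 in control. Hepatocyte markers summed to 37341 FPKM in TH-treated NASH, 38670 in NASH and 59048 in control, a sum led by Alb. In TH-treated NASH 4 of the 9 stood past 1.5-fold below control, while Apoa1 stood at 10408 FPKM there and 9851 in control.

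The genes with the nearest pattern were sought for Mmp12 and Timp1, the 2 members with the largest FPKM ratio of NASH over control, by the distance between pairs of log2(FPKM + 1) ratios. Over 3 libraries such likeness is loose. Nearest to Mmp12 were Ephb2, a receptor for ephrins, at a distance of 0.12, the T cell receptor segment Trbj1-3 at 0.15 and Fam83a at 0.15. Near to Timp1 were Tsc22d1 at 0.03 and Pnldc1 at 0.15.

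As the deposited table gives them, Mmp13 (ENSMUSG00000050578) lies on chromosome 9 from 7272514 to 7283333, and Mmp12 (ENSMUSG00000049723) lies downstream of it from 7344381 to 7369499. Mmp14 (ENSMUSG00000000957) lies on chromosome 14 from 54431604 to 54441258, and Loxl2 (ENSMUSG00000034205) on the same chromosome from 69609068 to 69695834. Timp1 (ENSMUSG00000001131) lies on chromosome X from 20870166 to 20874735. Mmp2 (ENSMUSG00000031740) lies on chromosome 8 from 92827328 to 92853417, Mmp19 (ENSMUSG00000025355) on chromosome 10 from 128790953 to 128800824, and Timp3 (ENSMUSG00000020044) on chromosome 10 from 86300372 to 86349506. Timp2 (ENSMUSG00000017466) lies on chromosome 11 from 118301069 to 118355740 and Lox (ENSMUSG00000024529) on chromosome 18 from 52516069 to 52529867. For these positions the build was not given in the sources used here, and 5 of the 10 genes have the same start and end in GENCODE M21 (GRCm38).

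Timp1 lies within the span of Syn1 on the opposite strand, which stood at 0.488 FPKM in TH-treated NASH, 0.391 in NASH and 0.135 in control. Timp3 lies likewise within Syn3, at 0.344, 0.325 and 0.280 FPKM in that order, and the end of Mmp19 overlaps Tmem198b, at 3.14 FPKM in TH-treated NASH, 2.26 in NASH and 2.04 in control. Whether strand was used in counting is not stated, and without it fragments from shared bases cannot be assigned.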

How the data were processed

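Liver polyA RNA of 3 groups was measured, 1 library per group. The deposited values are FPKM per gene, made by the authors, beside gene lengths and positions; TopHat2 and HTSeq are named per the submitters' processing notes, with versions, strand mode and build of the genome not given in the sources used here. FPKM times gene length was a whole multiple of 1 step in each library (100% of values above 0, within 0.01 fragment), which gave fragments per gene and library totals. From these, exact 95% Poisson intervals of levels and exact conditional binomial (Clopper-Pearson) intervals of ratios were computed with SciPy 1.17.1 in Python 3.11.15; PCR copies are not independent molecules. Ratios were called from 1.5-fold on log2(FPKM + 1), and lists and backgrounds used genes at 1 FPKM or more in any library. With 1 library per group no test between groups was possible.

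The members and the 15 gene lists (154 entries, 153 found, 4 of them by gene ID under an older symbol) were chosen with earlier results of these data known. Named genes were, per pathway list, up to 4 with the largest absolute log2(FPKM + 1) ratio of NASH over control, and for the 2 members with the largest ratio the 3 nearest genes; further genes are marked in the text, and some genes that this rule names are not reported here. Recovery of fragments and ratios was tested on simulated data, with changed genes drawn only from those at 5 FPKM or more in control. No known change was set at the lower control levels of members such as Mmp12 and Timp1. Alternatives were pseudocounts, filters, 4 scalings, a 2-fold threshold and a call on the counting interval. Promoter sequences come from RefSeq (GRCm38.p6), which held 6 of the 10 members.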

Additional observations from a re-analysis of the deposited data

How the results depend on the processing

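No paired analysis was possible because each group has 1 library, and for the same reason no replicate could be left out. The 30 ratios of members kept their sign in 120 of 120 values under the 4 scalings, and a pseudocount cannot change a sign. Those scalings moved the median of all genes in NASH over control between 0.14 and −0.03 (log2), and they move members and other genes almost alike by construction.

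Counts are of the 8 members at 1 FPKM. The share of all genes under these settings is not given here. In NASH over control the 6 higher members became 1 with a pseudocount of 5 FPKM, 2 of 4 among members of at least 5 FPKM and 3 at a 2-fold threshold. They became 5 under median-of-ratios and trimmed-mean scaling. In TH-treated NASH over NASH the 1 higher member became 0 with a pseudocount of 5 FPKM, with equal FPKM sums, with equal sums without the 50 most abundant genes and at 2-fold. The 4 lower members became 1 with a pseudocount of 5 FPKM and at 2-fold, and 0 at 5 FPKM or more, which leaves out all 4. They became 5 with a pseudocount of 0.1 FPKM, with equal FPKM sums and with equal sums without the 50 most abundant genes. In TH-treated NASH over control the 2 higher members became 1 with a pseudocount of 5 FPKM, at 5 FPKM or more and under each of the 4 scalings. They became 0 at 2-fold and 3 with a pseudocount of 0.1 FPKM. The median log2 ratio of members in NASH over control was 1.45 with a pseudocount of 0.1 FPKM, 0.39 with 5 FPKM and 0.47 at 5 FPKM or more. In TH-treated NASH over NASH it was −1.02, −0.32 and −0.31 under the same settings. In TH-treated NASH over control it was 0.46 and 0.11 with the 2 pseudocounts. The pseudocount bears most on low genes by construction. For a gene of 2 kb, a count of 0 allows up to 0.0392 FPKM in TH-treated NASH, 0.0319 in NASH and 0.0275 in control (3 counts).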

Other observations

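Fn1, the fibronectin gene, stood at 173 FPKM in TH-treated NASH, 120.0 in NASH and 132 in control, and was picked after its values were seen.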
